A study of Mus musculus with 4 samples.

Results

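Metallothioneins and the genes that sense and move zinc were followed in polymorphonuclear myeloid-derived suppressor cells (PMN-MDSCs) of newborn mice. The members are 6 of the 28585 genes measured: the metallothioneins *Mt1* and *Mt2*, the metal sensor *Mtf1*, the zinc exporter *Slc30a1* and the zinc importers *Slc39a1* and *Slc39a14*. They were chosen by the level of *Mt2*, whose FPKM was lower in both Dhps cko libraries than in both Dhps flox libraries, and the difference of *Mt2* is therefore given as a description without a test. The other 5 genes were taken for their place in zinc biology, and the question was whether they follow *Mt2*.

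The data are 4 bulk RNA sequencing libraries of PMN-MDSCs from the spleen on postnatal day 7, each from 300000 cells, with 2 libraries per genotype. Dhps flox mice carry floxed *Dhps*, the gene of deoxyhypusine synthase, on both chromosomes (Dhps fl/fl). Dhps cko mice carry the same floxed alleles and, in addition, Lysm cre, a Cre recombinase driven by the lysozyme locus, which acts in myeloid cells in general and not in PMN-MDSCs alone. All mice were untreated, on a C57BL/6J background, and the study describes the 2 genotypes as littermates. PMN-MDSCs were gated by the study as CD11b+ Ly6C lo/- Ly6G+ cells. The study used mice of both sexes. How many pups gave a library, and the sex of the pups in each, is not given in the sources used here, so the spread between libraries may be technical in part.

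Values are FPKM, fragment numbers set relative to transcript length and library size, as deposited. They summed to between 304281 and 319286 per library, and the estimated depth was between 29350000 and 32150000 mapped fragments. The 10 neutrophil markers, which include *Ly6g*, *S100a8* and *Ngp*, were all detected. They summed to 76054 and 78351 FPKM in Dhps cko and 76009 and 71568 FPKM in Dhps flox. Of their 10 log2 fold changes 9 were above 0, with a median of 0.08. Over the 17948 genes tested, 9368 were above 0, with a median of 0.01. *Dhps* itself was at 2.38 and 2.59 FPKM in Dhps cko and at 3.57 and 3.11 FPKM in Dhps flox. Its Dhps cko mean was 74.4% of the Dhps flox mean (adjusted p = 0.63 from limma). FPKM per gene do not show whether this RNA was intact or which of the sorted cells held it.

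Metallothioneins are small cytosolic proteins, rich in cysteine, that hold zinc and copper ions and give them up again when needed. When free zinc rises, the zinc finger factor MTF1 binds metal response elements in the promoters of *Mt1*, *Mt2* and *Slc30a1* and switches these genes on. ZnT transporters of the Slc30 family take zinc out of the cytosol, and ZIP transporters of the Slc39 family bring it in. Glucocorticoids and oxidative stress also induce metallothioneins, and neutrophils release the zinc-binding pair S100A8 and S100A9, which withholds zinc from microbes.

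*Mt2* (ENSMUSG00000031762) and *Mt1* (ENSMUSG00000031765) lie side by side on the plus strand of chromosome 8 of GRCm38, at chr8:94172664-94173568 and chr8:94179082-94180327 in the GENCODE M21 annotation, with 5513 bases between them. Each has 3 exons in the spliced transcript model used here, of 511 bases for *Mt2* and 549 bases for *Mt1*. The longest model of *Mt1* has 1085 bases. Their coding sequences are shown because they carry the property that defines the family. Cysteine codons (TGC or TGT) are in capitals.
Mt1: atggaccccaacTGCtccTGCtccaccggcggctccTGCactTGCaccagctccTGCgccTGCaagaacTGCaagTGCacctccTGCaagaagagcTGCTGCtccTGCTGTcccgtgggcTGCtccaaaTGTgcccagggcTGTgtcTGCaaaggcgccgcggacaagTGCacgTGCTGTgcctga
Mt2: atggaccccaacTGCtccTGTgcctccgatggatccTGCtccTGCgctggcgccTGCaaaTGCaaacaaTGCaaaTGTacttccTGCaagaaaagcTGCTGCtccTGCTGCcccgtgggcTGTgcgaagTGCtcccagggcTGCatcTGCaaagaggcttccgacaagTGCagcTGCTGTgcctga
In both genes 20 of 61 codons before the stop encode cysteine, 32.8% of the protein, and all 20 stand at the same positions in the 2 genes. Of the 186 coding bases, 148 were identical (79.6%). The longest run of identical bases shared by the 2 transcripts was 20 bases.

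Stretches before the annotated starts are shown because MTF1 acts on promoters. The 250 bases before the RefSeq transcription start (GRCm38.p6, plus strand) are chr8:94178839-94179088 for *Mt1* and chr8:94172368-94172617 for *Mt2*. Capitals mark the core of the metal response element, searched on both strands as TGCACNC or TGCGCNC.
Mt1: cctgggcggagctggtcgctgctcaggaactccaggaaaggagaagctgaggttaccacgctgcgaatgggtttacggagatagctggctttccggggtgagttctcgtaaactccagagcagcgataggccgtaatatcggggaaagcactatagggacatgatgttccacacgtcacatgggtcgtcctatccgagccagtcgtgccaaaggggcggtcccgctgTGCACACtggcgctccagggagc
Mt2: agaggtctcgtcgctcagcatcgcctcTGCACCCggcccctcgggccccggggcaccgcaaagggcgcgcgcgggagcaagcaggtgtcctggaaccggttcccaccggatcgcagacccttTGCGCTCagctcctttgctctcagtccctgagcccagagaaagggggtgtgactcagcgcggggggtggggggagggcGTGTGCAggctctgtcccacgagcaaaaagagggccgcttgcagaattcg
The printed stretches held 1 core in *Mt1* and 3 in *Mt2*. Over the full windows, which run on to 50 bases after the start, *Mt1* held 3 cores and *Mt2* 4, without overlap between cores. Of the 32851 RefSeq promoter windows of this length, 25.7% held at least 1 core, 1.97% at least 3 and 0.517% at least 4. The window of *Slc30a1* held 2 cores, where 7.11% of all windows held at least 2, and those of *Mtf1* and *Slc39a1* held 0. A core of the antioxidant response element (TGACNNNGC, both strands, in 12.4% of windows) was found once each in the windows of *Mt2*, *Slc30a1* and *Slc39a1*. The palindromic glucocorticoid response element was in none of the 5 windows examined and in 0.00913% of all windows. *Slc39a14* was not examined. In the GENCODE models the letters TATAAA first occur 128 bases into the *Mt1* transcript and 89 bases into the *Mt2* transcript, and these leading bases held 4 and 3 cores of the metal response element. The same stretch of *Mt1* held 1 antioxidant core and that of *Mt2* held 0. Of the metal cores of *Mt1*, 2 of the 4 are also among those of the window above, and for *Mt2* none is. The printed stretches end before this TATAAA in both genes and leave out all metal cores of these leading bases. Such a match is a string of letters and does not show that a factor is bound.

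*Mt2* was the member that differed most between genotypes. Dhps cko replicate 1 had 2.34 FPKM and replicate 2 had 3.08 FPKM, whereas Dhps flox replicate 1 had 8.86 FPKM and replicate 2 had 9.62 FPKM. The groups did not overlap, which the choice of members fixed. Of all genes tested, 16.0% were likewise lower in both Dhps cko libraries. As a description, the gap between the groups was wider than the gap between replicates of either genotype. The Dhps cko mean was 2.71 ± 0.52 FPKM (SD, n = 2) and the Dhps flox mean 9.24 ± 0.54 FPKM (SD, n = 2), a level 3.41-fold lower in Dhps cko. On the log2(FPKM + 0.1) scale, which understates changes of low genes, the fold change was -1.74 (standard error 0.15). Of 10629 genes that averaged at least 1 FPKM, 13 had a lower log2 fold change, which is again a description. In bulk RNA, fewer cells expressing *Mt2* and less *Mt2* RNA per cell cannot be told apart.

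*Mt1*, the neighbouring metallothionein, was also lower in both Dhps cko libraries. Dhps cko replicate 1 had 4.24 FPKM and replicate 2 had 2.65 FPKM, whereas Dhps flox replicate 1 had 5.88 FPKM and replicate 2 had 6.03 FPKM. The Dhps flox libraries were nearly equal, whereas the Dhps cko libraries differed from each other by almost as much as replicate 1 differed from Dhps flox. The Dhps cko mean was 57.9% of the Dhps flox mean. The log2 fold change of *Mt1* was -0.81 with an SE of 0.23. Its p from limma, adjusted over the 17948 genes tested by the Benjamini-Hochberg method, was 0.58 and did not pass the threshold of 0.05. It was -0.48 without Dhps cko replicate 2 and -1.14 without Dhps cko replicate 1. By exact permutation, the smallest p that this design allows is 0.33.

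**Figure D1:**
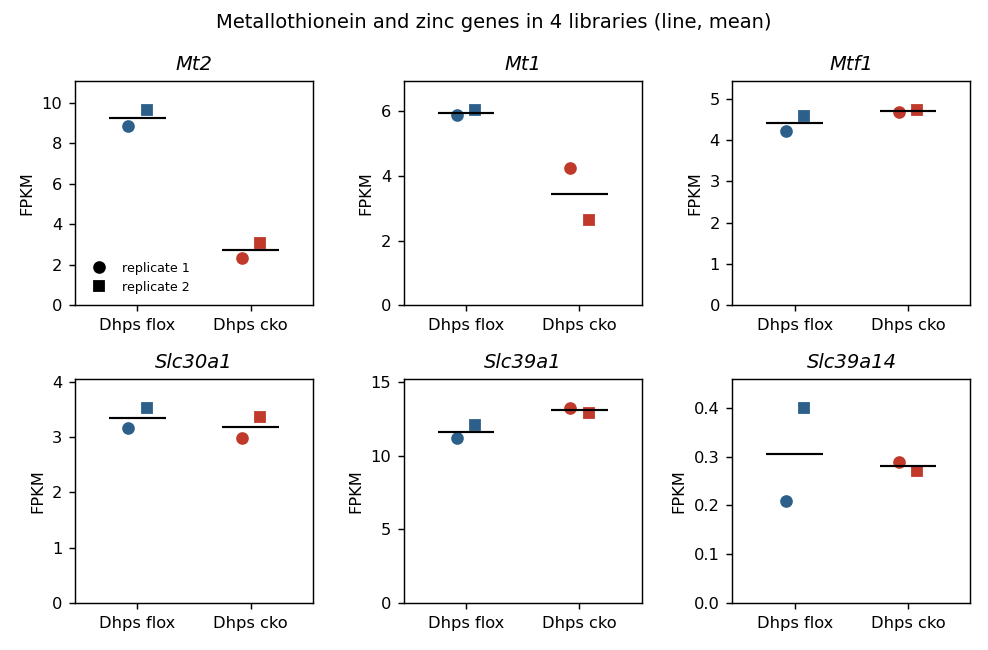
FPKM of the 6 genes in each library (vertical axes, FPKM, each starting at 0), with Dhps flox in blue, Dhps cko in red, replicate 1 as circles, replicate 2 as squares and the group mean as a line. *Mt2* and *Mt1* sit lower in both Dhps cko libraries, while the other 4 genes have group means between 91.8% and 112% of Dhps flox.

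The number of fragments behind these values was modest. At the estimated depths and the spliced transcript lengths, *Mt2* rested on about 38 and 49 fragments in the Dhps cko libraries and 136 and 144 in the Dhps flox libraries. The 95% exact Poisson intervals, which cover counting error only, reached up to 64.8 fragments in Dhps cko and down to 114 in Dhps flox. They show the precision of each *Mt2* value and are no test of the difference, which chose the members. *Mt1* rested on about 75 and 45 fragments in Dhps cko and 97 in each Dhps flox library. For *Mt1* the interval of Dhps cko replicate 1 (59.0 to 94.0) overlapped that of the Dhps flox libraries (78.7 to 118), and that of Dhps cko replicate 2 (32.8 to 60.2) did not.

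**Figure D2:**
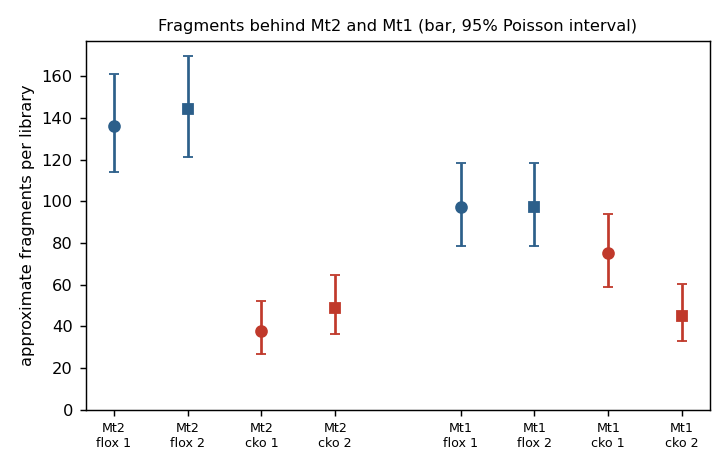
Approximate fragments per library for *Mt2* and *Mt1* (vertical axis, fragments, starting at 0), with Dhps flox in blue, Dhps cko in red and bars for the 95% exact Poisson interval. *Mt2*, whose difference chose the members, is shown for its precision, and the *Mt1* interval of Dhps cko replicate 1 overlaps those of Dhps flox.

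The balance between the 2 metallothioneins, a ratio within a library that does not depend on scaling between libraries, also differed. *Mt2* FPKM divided by *Mt1* FPKM was 0.552 in Dhps cko replicate 1, 1.16 in Dhps cko replicate 2, 1.51 in Dhps flox replicate 1 and 1.60 in Dhps flox replicate 2. *Mt2* thus exceeded *Mt1* in both Dhps flox libraries and in Dhps cko replicate 2, and was below it in Dhps cko replicate 1. Since *Mt2* chose the members, this ratio too is a description. Summed, the pair was at 6.58 and 5.73 FPKM in Dhps cko and at 14.74 and 15.65 FPKM in Dhps flox. The remaining metallothioneins were near the detection limit: *Mt4* was at 0.22 and 0.20 FPKM in Dhps cko and at 0.12 and 0 in Dhps flox, higher in both Dhps cko libraries (adjusted p = 0.77 from limma), and *Mt3* was listed at 0.02 FPKM in Dhps cko replicate 1 and at 0 elsewhere.

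The metal sensor was not lower in Dhps cko. *Mtf1* (ENSMUSG00000028890; chr4:124802104-124849800, plus strand) was at 4.69 and 4.72 FPKM in Dhps cko and at 4.22 and 4.59 FPKM in Dhps flox. Its Dhps cko libraries were nearly equal and lay above both Dhps flox libraries by a small margin. Its log2 fold change was 0.09 with an SE of 0.10 (adjusted p = 0.88 from limma).

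*Slc30a1* (ENSMUSG00000037434; chr1:191906767-191913247, plus strand) encodes the exporter ZnT1 of the plasma membrane, and like the metallothioneins it is a known target of MTF1. It was at 2.99 and 3.37 FPKM in Dhps cko and at 3.16 and 3.53 FPKM in Dhps flox. The genotypes overlapped, and the log2 fold change was -0.07 with an SE of 0.13 (adjusted p = 0.94 from limma).

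The importers went in no common direction. *Slc39a1* (ENSMUSG00000052310; chr3:90248172-90253612, plus strand), which encodes the widely expressed importer ZIP1, was at 13.23 and 12.90 FPKM in Dhps cko and at 11.16 and 12.09 FPKM in Dhps flox. Both Dhps cko libraries were above both Dhps flox libraries, with a log2 fold change of 0.17, an SE of 0.08 and an adjusted p of 0.76 from limma. *Slc39a14* (ENSMUSG00000022094; chr14:70303469-70351425, minus strand), which encodes ZIP14, an importer of zinc, iron and manganese that inflammation induces in liver, was scarce. It was at 0.29 and 0.27 FPKM in Dhps cko and at 0.21 and 0.40 FPKM in Dhps flox, where the 2 libraries enclosed the Dhps cko values. Its log2 fold change was -0.05 with an SE of 0.37 (adjusted p = 0.99 from limma).

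Of the 5 members other than *Mt2*, 0 had an adjusted p under 0.05 from limma, and 1, *Mt1*, had an unadjusted p under 0.05. Over all genes tested, 0.00557% had an adjusted p under 0.05, which is 1 gene, and 7.0% had an unadjusted p under 0.05. Of the 5, *Mt1* was lower in both Dhps cko libraries, as were 16.0% of all genes tested, and *Mtf1* and *Slc39a1* were higher in both, as were 20.0% of all genes tested. The Dhps flox order of mean levels per length was *Slc39a1*, *Mt2*, *Mt1*, *Mtf1*, *Slc30a1* and *Slc39a14*, and no neighbours in it overlapped between libraries. In Dhps cko *Mt2* came after *Slc39a1*, *Mtf1*, *Mt1* and *Slc30a1*, at a mean of 2.71 FPKM. There the ranges of *Mt1*, *Slc30a1* and *Mt2* overlapped, so their order is not resolved.

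The wider zinc transporter families showed no common direction. Of the 24 genes in the Slc30 and Slc39 families, 18 averaged at least 0.1 FPKM and were tested, and *Slc30a8* and *Slc39a2* were not analysed here. Of these 18, 0 had an adjusted p and 0 an unadjusted p under 0.05 from limma. In 10 the log2 fold change was below 0 and in 8 above 0, and the median was -0.01, against 0.01 over all genes tested. Both Dhps cko libraries lay below both Dhps flox libraries for 3 of the 18 and above them for 3, where 16.0% and 20.0% of all genes tested did so.

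Among the 7 exporters tested, the median log2 fold change was 0.06. The most abundant was *Slc30a7*, which encodes a ZnT of the Golgi apparatus, at 5.53 and 5.21 FPKM in Dhps cko and 5.26 and 5.04 FPKM in Dhps flox. *Slc30a5* and *Slc30a9* were at between 3.21 and 4.10 FPKM in all libraries, with overlapping genotypes. *Slc30a6*, singled out after the values were seen, was the 1 exporter higher in both Dhps cko libraries, at 3.20 and 3.72 against 2.85 and 2.94 FPKM (log2 fold change 0.25, adjusted p = 0.77 from limma). Among the 11 importers tested, the median was -0.03. *Slc39a11* was the most abundant zinc transporter, at 32.26 and 33.80 FPKM in Dhps cko and 32.87 and 34.76 FPKM in Dhps flox. *Slc39a7*, which encodes ZIP7, a channel that releases zinc from the endoplasmic reticulum, was at 13.51 and 15.13 FPKM in Dhps cko and 15.84 and 16.05 FPKM in Dhps flox, with a log2 fold change of -0.16 (adjusted p = 0.77 from limma). *Slc39a3* was at 7.97 and 7.82 FPKM in Dhps cko and 6.96 and 7.67 FPKM in Dhps flox, which is the direction of *Slc39a1*. The largest log2 fold change among the importers tested was that of *Slc39a8*, which encodes ZIP8 and was singled out after the values were seen, at 0.22 and 0.21 FPKM in Dhps cko and 0.31 and 0.30 FPKM in Dhps flox (log2 fold change -0.36, adjusted p = 0.84 from limma).

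**Figure D3:**
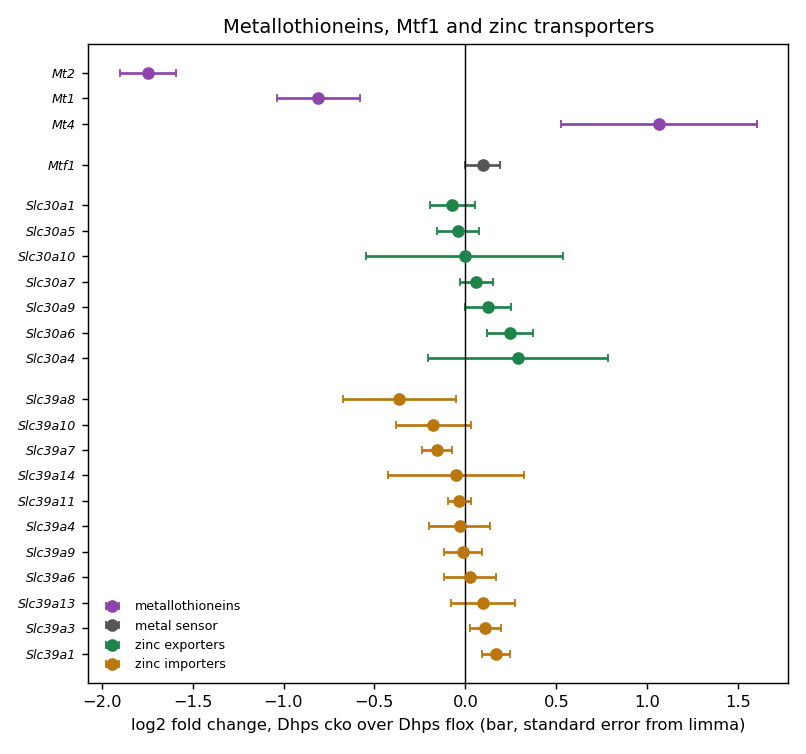
Log2 fold change of Dhps cko over Dhps flox on the log2(FPKM + 0.1) scale (horizontal axis, bars are limma standard errors) for the 3 metallothioneins tested, *Mtf1*, 7 zinc exporters and 11 zinc importers (vertical axis, genes). *Mt2* at -1.74 and *Mt1* at -0.81 stand to the left of every zinc transporter tested, of which *Slc39a8* is the lowest at -0.36. Transporters that averaged under 0.1 FPKM are not shown.

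Of 4 other genes known to respond to MTF1, 2 were lower in both Dhps cko libraries and 0 were higher in both, against 16.0% and 20.0% of all genes tested. *Slc40a1*, which encodes the iron exporter ferroportin, was at 51.02 and 53.65 FPKM in Dhps cko and 52.19 and 50.18 FPKM in Dhps flox. *Gclc*, of glutathione synthesis, was at 1.93 and 1.88 FPKM in Dhps cko against 2.04 and 1.97 FPKM, and *Slc39a10*, which MTF1 represses, at 0.71 and 0.79 against 0.82 and 0.90 FPKM. *Selenow*, a selenoprotein gene, varied more between replicates than between genotypes, at 8.22 and 5.73 FPKM against 7.21 and 4.48 FPKM. Of these 4 genes, 0 had an adjusted p and 0 an unadjusted p under 0.05 from limma. The median log2 fold change was -0.02, over a list that holds both induced and repressed genes.

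Other routes of metallothionein induction were examined through their known response genes. Of 12 glucocorticoid response genes, 0 had an adjusted p and 3 an unadjusted p under 0.05 from limma. Over all genes tested the unadjusted share was 7.0%. In 5 of the 12 both Dhps cko libraries were lower and in 2 both were higher, against 16.0% and 20.0% of all genes tested, and the median log2 fold change was -0.05. *Dusp1*, a phosphatase gene that many other stimuli induce as well, was at 42.51 and 43.03 FPKM in Dhps cko and 84.27 and 65.88 FPKM in Dhps flox, a log2 fold change of -0.80 with an SE of 0.12 (adjusted p = 0.41 from limma). *Il1r2*, the decoy receptor of interleukin 1, went the other way, at 20.08 and 24.49 FPKM against 17.30 and 18.16 FPKM, as did *Fkbp5*, which encodes a chaperone of the glucocorticoid receptor, at 8.69 and 9.08 against 7.87 and 8.01 FPKM. *Fkbp5* and the other 4 genes that were lower in both Dhps cko libraries are named here after their values were seen. *Tsc22d3*, which encodes GILZ, was at 14.73 and 15.62 FPKM against 17.94 and 16.74 FPKM, *Per1* at 4.25 and 4.07 against 4.60 and 4.95 FPKM, and *Sgk1* at 10.32 and 10.65 against 11.66 and 11.07 FPKM. *Errfi1* was at 0.79 and 0.93 against 1.06 and 0.97 FPKM. *Zfp36* and *Cebpd* overlapped between genotypes. Of the 8 NRF2 response genes, 0 had an adjusted p and 1, *Hmox1*, an unadjusted p under 0.05, with a median log2 fold change of 0.05. *Gsr*, the glutathione reductase gene, was at between 307.98 and 314.95 FPKM in all libraries, and *Txnrd1* at between 9.62 and 10.51 FPKM.

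Copper and iron genes were set beside zinc because metallothioneins also bind copper and *Slc39a14* also carries iron. Of 9 copper genes tested, 0 had an adjusted p and 1, *Slc31a2*, an unadjusted p under 0.05 from limma, and the median log2 fold change was 0.05. *Slc31a2*, a homologue of the copper importer CTR1, was at 63.11 and 68.60 FPKM in Dhps cko and 58.56 and 56.60 FPKM in Dhps flox. *Cp*, the gene of the copper protein ceruloplasmin, was at 0.25 and 0.28 FPKM in Dhps cko and 0.38 and 0.49 FPKM in Dhps flox (log2 fold change -0.55, adjusted p = 0.78 from limma). *Atox1*, *Sod1* and *Slc31a1* were at between 4.19 and 17.23 FPKM, with log2 fold changes between 0.11 and 0.19. Of 10 iron genes, 0 had an adjusted p and 3 an unadjusted p under 0.05 from limma, the latter against 7.0% of all genes tested. The median was 0.20, and both Dhps cko libraries were higher in 7 of the 10, against 20.0% of all genes tested. *Ftl1*, the ferritin light chain gene, was at 381.23 and 371.54 FPKM in Dhps cko and 335.93 and 307.99 FPKM in Dhps flox, and *Hmox1*, which frees iron from heme, at 70.00 and 73.96 against 61.78 and 64.55 FPKM. *Fth1*, the ferritin heavy chain gene, was at 147.24 and 144.76 against 141.42 and 136.81 FPKM, a log2 fold change of 0.07, and *Slc40a1*, given above, overlapped between genotypes. *Steap3*, a metal reductase gene, was at 0.70 and 0.49 FPKM against 0.37 and 0.38 FPKM (log2 fold change 0.53, adjusted p = 0.78 from limma). The 10 monocyte-macrophage markers summed to between 391 and 397 FPKM in Dhps cko and 324 and 325 FPKM in Dhps flox. Of the 10, 8 were higher in both Dhps cko libraries, against 20.0% of all genes tested, and 6 had an unadjusted p under 0.05 from limma, against 7.0%, and their part in the iron genes was not tested.

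**Figure D4:**
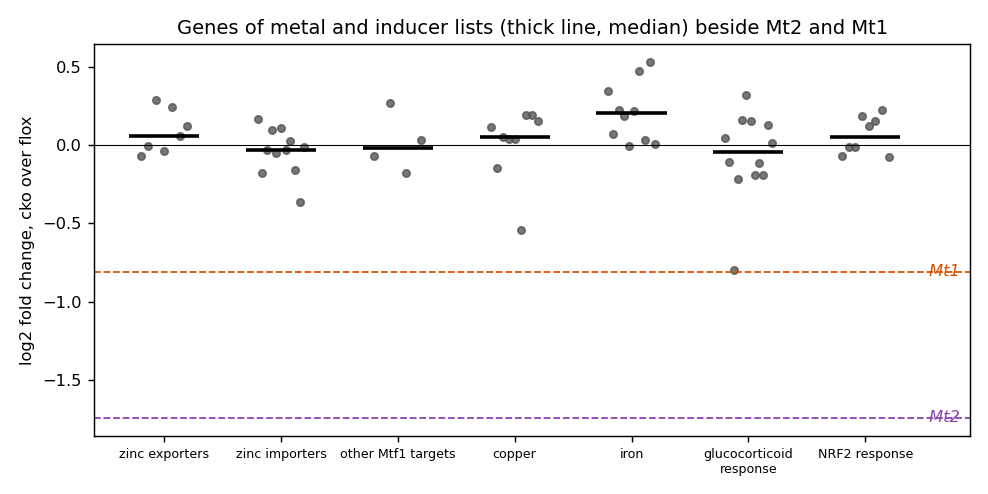
Log2 fold change of Dhps cko over Dhps flox (vertical axis) for each tested gene of 7 lists (points), with the list median as a thick line and dashed lines at *Mt2* (-1.74) and *Mt1* (-0.81). The list medians lie between -0.05 and 0.20, and no listed gene reaches the level of *Mt1*, the nearest being *Dusp1* at -0.80.

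The zinc-binding pair of neutrophils was abundant and did not separate the genotypes. *S100a8* was at 7781 and 8315 FPKM in Dhps cko and 8662 and 7165 FPKM in Dhps flox, and *S100a9* at 26387 and 28033 FPKM against 26409 and 24504 FPKM.

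The profile most like that of *Mt2* over the 4 libraries belonged to *Lyz2*, among 3759 genes that averaged at least 10 FPKM. Likeness was the Euclidean distance between log2(FPKM + 0.1) values, each gene centred on its mean, and it was 0.32 for *Lyz2*, the lysozyme gene whose locus carries Lysm cre. The next were *Saa3* (0.65), *Mmp3* (0.79), *Gm4149* (0.86) and *Gm2423* (0.90). *Lyz2* was at 2245 and 2380 FPKM in Dhps cko and 6874 and 6544 FPKM in Dhps flox. Only Dhps cko mice carry Lysm cre, and the part of this allele in the *Lyz2* values was not tested. *Saa3*, a serum amyloid A gene, was at 6.30 and 4.38 FPKM in Dhps cko and 16.14 and 16.87 FPKM in Dhps flox. *Mmp3*, a matrix protease gene, was at 5.16 and 5.15 against 16.97 and 33.17 FPKM. The 5 genes nearest to *Mt1* were *Gm12191* (0.23), *Vasn* (0.38), *Ppia* (0.39), *Gm29233* (0.46) and *Gm15845* (0.49). None of these 5 is among those nearest to *Mt2*. With 4 libraries, many genes have like profiles, and the distances are a description.

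Other features of the libraries moved with genotype as well. The Y-linked marker list of 4 genes summed to 7.07 and 8.07 FPKM in Dhps cko and 17.64 and 15.62 FPKM in Dhps flox. All 4 were lower in both Dhps cko libraries, against 16.0% of all genes tested, and their median log2 fold change was -1.08. For *Mt2* and *Mt1*, the share of male pups in a library and the genotype cannot be told apart. Of the 8 B cell markers, 7 were higher in both Dhps cko libraries, as were 5 of the 8 T cell markers and 8 of the 10 monocyte-macrophage markers described above, against 20.0% of all genes tested. The 8 B cell markers summed to between 66.1 and 68.4 FPKM in Dhps cko and 41.9 and 51.5 FPKM in Dhps flox, and the 8 T cell markers to between 15.0 and 18.5 and between 8.01 and 11.9 FPKM. The T cell markers *Cd3d*, *Cd3e* and *Cd8a* overlapped between genotypes. Of the 10 neutrophil markers, 4 were higher in both Dhps cko libraries, against the same 20.0%. Liver and intestine are tissues rich in metallothionein. The 8 hepatocyte markers summed to between 5.46 and 7.97 FPKM in Dhps cko and 2.76 and 3.22 FPKM in Dhps flox, mostly from *Apoa1*, while *Alb* reached at most 0.14 FPKM and *Fgb* was listed at 0 in every library. The 8 intestinal markers summed to between 17.7 and 26.2 FPKM in Dhps cko and 7.70 and 22.6 FPKM in Dhps flox, with a median log2 fold change of 0.46. Although these sums overlapped, 3 of the 8 were higher in both Dhps cko libraries, against 20.0% of all genes tested. They were *Alpi*, at 7.39 and 5.21 against 2.26 and 2.17 FPKM, *Fabp1*, at 5.72 and 3.44 against 1.67 and 1.31 FPKM, and *Fabp2*, at 4.93 and 3.51 against 2.36 and 1.08 FPKM. The log2 fold changes below 0 were those of *Krt8*, at 2.63 and 1.73 against 8.85 and 0.90 FPKM, and *Epcam*, at 1.19 and 0.76 against 2.91 and 0.52 FPKM, both of which overlapped between genotypes. The 6 fibroblast markers had no common direction, with 3 log2 fold changes below 0 and 3 above 0 and a median of 0.03. Of the 6, 1 was lower in both Dhps cko libraries (16.0% of all genes tested) and 2 were higher in both (20.0%). The lower one was *Dcn*, at 1.29 and 1.40 against 1.84 and 2.27 FPKM, and the higher ones were *Col1a1*, at 16.87 and 13.10 against 11.04 and 13.06 FPKM, and *Col1a2*, at 4.72 and 3.76 against 2.86 and 3.44 FPKM. The 2 endothelial markers tested overlapped between genotypes, as did all but 1 of the 8 erythroid markers. The part of these cells in the *Mt1* and *Mt2* values was not tested.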

How the data were processed

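Splenic PMN-MDSC RNA was sequenced. The authors filtered reads with Cutadapt, aligned them with HISAT2 to mm10 (build and tools as in the submitters' processing notes) and calculated the deposited FPKM per gene with StringTie and ballgown. The annotation version, strandedness and any scaling between libraries are not given in the sources used here. FPKM are relative, so a library in which a few genes take more fragments shows lower values elsewhere. Gene models came from GENCODE M21 (28511 of the identifiers matched, 74 did not) and promoters from RefSeq (GRCm38.p6), which matched 5 of the 6 members.

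The genotype contrast was fitted on log2(FPKM + 0.1) for 17948 genes that averaged at least 0.1 FPKM, using the limma package (3.58.1, R 4.3.3) with its trended empirical Bayes variances and Benjamini-Hochberg adjustment across all of them. Groups came from the sample titles. Library depth came from the spacing of low FPKM among single-exon genes of 200 to 1500 bases. Since only 39.9% to 42.6% of these values lay within 0.15 of a whole fragment, where chance gives 30%, fragment numbers are approximate and whole reads were not recovered. The step and the limma fit were tested on simulated data. Lists were described by counts and medians. Named genes were drawn from the members, the up to 4 most abundant genes of each list and the 5 nearest profiles of *Mt1* and *Mt2*. They were also drawn from listed genes that were tested and separated the genotypes by at least 0.5 on the log2 scale. Some other genes, such as *Slc30a6* and *Slc39a8*, were named after their values were seen. The members and lists were chosen with earlier results of these data known. Other steps ran in Python 3.11.15 (numpy 2.4.6, pandas 2.3.3, scipy 1.17.1), with figures in matplotlib 3.10.9. The alternatives were other pseudocounts, filters and scalings, centring by transcript length, no trend, a replicate block and leaving out each library.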

Additional observations from a re-analysis of the deposited data

How the results depend on the processing

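The log2 fold change of *Mt2*, whose direction the choice of members fixes, was -1.47 with a pseudocount of 1 and -1.94 to -1.55 without single libraries. *Mt1* stayed lower under all 14, between -1.14 and -0.48, and its adjusted p from limma was between 0.43 and 0.95. *Mtf1* and *Slc39a1* stayed higher under all 14 (0.03 to 0.15 and 0.11 to 0.23). *Slc30a1* ran from -0.15 to 0.013 without single libraries, turning to 0.013 without Dhps cko replicate 1 and to 0.0064 without Dhps flox replicate 2, and *Slc39a14* ran from -0.40 to 0.29, turning to 0.29 without Dhps flox replicate 2. *Slc39a14* could not be tested at a minimum of 1 FPKM. The number of genes with an adjusted p under 0.05, 1 in the comparison reported, was 0 with a pseudocount of 0.01, without the filter, and without any single library (range 0 to 0), 2 with quantile normalization, 4 for genes averaging at least 1 FPKM and 1257 at an unadjusted p under 0.05. With the replicate block it was 0. The correlation of deviations between libraries of the same replicate number was -0.06. With 2 libraries per genotype this is 1 value for both numbers, and it cannot settle whether the libraries were paired. The design is balanced, so the block changes only the error. Without single libraries the list medians ran from 0.0064 to 0.22 for zinc exporters, -0.047 to 0.017 for zinc importers, -0.082 to 0.0070 for other MTF1 targets, 0.042 to 0.19 for copper, 0.13 to 0.22 for iron, -0.14 to -0.022 for glucocorticoid and -0.033 to 0.15 for NRF2 response genes. For genes averaging at least 1 FPKM they moved to 0.032 for MTF1 targets, 0.13 for iron, -0.11 for glucocorticoid and -0.014 for NRF2 response genes. TPM scaling gave -0.050 for MTF1 targets and 0.17 for iron, and quantile normalization 0.14 and length centring 0.13 for iron. No scaling moved the median of all genes by over 0.1. The cause of these shifts was not tested. At the transcript lengths used, a library held at most about 144 fragments of *Mt1* or *Mt2*. With such numbers and 2 libraries per genotype, small differences are not resolved.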

Other observations

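The surroundings of the metallothionein pair were looked up after the values were seen. Within 100000 bases of *Mt1* and *Mt2* on chromosome 8, *Nup93*, which encodes a nuclear pore protein, was at 2.71 and 2.21 FPKM in Dhps cko and 3.06 and 3.13 FPKM in Dhps flox, lower in both Dhps cko libraries (log2 fold change -0.33, adjusted p = 0.75 from limma). *Bbs2*, a gene of the primary cilium, was at 0.61 and 0.84 FPKM against 0.58 and 0.64 FPKM, and the genotypes overlapped. The floxed *Dhps* lies on the same chromosome, 9097501 bases before *Mt2*, and is floxed in both genotypes.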
